A study of Drosophila melanogaster with 33 samples.

Results

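Chromatin of per01 and wild-type clock neurons was compared at CT36, which is subjective dusk, to ask which sites differ at this time in a mutant without the PER repressor. All 7 clock neuron libraries labelled CT36 were used, 4 of per01 and 3 of the wild type, out of 33 libraries in the series. Their peaks merged into 27359 regions, against 36210 over all 33 libraries, and 19964 regions called in at least 3 of the 7 libraries were tested. In those, 151 regions were higher and 150 were lower in per01. They included 15 higher regions at the left end of the X chromosome and regions of *Hk*, *G9a*, *Gyc89Da*, *unc-5* and *Tob*. None of the 36 tested regions of the 8 core clock genes passed, beside 1.51% of all tested regions.

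The per01 libraries came from flies labelled per01/Y;ClkGAL4, UAS-GFP-NLS/+ and the wild-type libraries from flies labelled ;ClkGAL4, UAS-GFP-NLS/+. Both groups thus carried the *Clk-GAL4* driver and a nuclear GFP, which mark clock neurons among all cells of the adult brain, and GFP-positive, DAPI-negative cells were sorted from pooled dissected brains. Both were entrained to light and dark cycles and then kept in constant darkness, for which the labels and the study's text give different lengths, as they do for the number of brains. The per01 allele is a point mutation that ends the PER protein early, so an open *per* locus does not check the label, and no other value in the peak lists does. The label of the mutants names males and that of the wild type names no sex, while the study's text has brains of both sexes in its ATAC-seq. Sex, strain background and genotype therefore cannot be told apart in any difference below. The study's text gives 4 replicates, and 3 wild-type libraries were analysed here. That text calls its replicates biological. Neither it nor the labels say whether libraries of a group came from separate rearings. The p-values thus measure the spread between these samples, part of which may be technical. In sorted bulk cells, fewer cells with an open site and a less open site in each cell cannot be told apart.

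The fly clock is a loop of transcription and repression. CLK and CYC bind E-boxes in *per*, *tim*, *vri*, *Pdp1* and *cwo* and turn these genes on towards dusk, and PER and TIM return to the nucleus in the night to shut CLK and CYC down. VRI and PDP1 act on VP-boxes (TTATGTAA or TTACGTAA, on either strand), among others in *Clk*, in another loop. Without PER the repression is missing, and per01 flies have no behavioural rhythm.

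ATAC-seq reads out open chromatin through the DNA ends that the Tn5 transposase leaves. The unit used here is tags, the whole number of such ends at the summit of a called peak, each counted over 74 bp, scaled between libraries by the median of ratios. The per01 libraries held 12.2, 5.11, 7.05 and 4.18 M tags, and the wild-type libraries held 8.72, 11.2 and 11.1 M. A library's peaks had a median of 61, 34, 43 and 30 tags before scaling in per01 and of 47, 55 and 54 in the wild type. So 3 of the 4 mutant libraries were shallower than every wild-type library, and the fourth per01 library was the shallowest. Correlations of log2 tags were 0.911 to 0.963 within per01, 0.962 to 0.965 within the wild type and 0.918 to 0.951 between the genotypes. A peak list gives no value for a library without a call. Such a library was set to the lowest tags among its own called peaks, 12.6 to 20.3 scaled tags in per01 and 13.8 to 15.7 in the wild type. Below, "no call" stands for these values.

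Each of *per*, *tim*, *Clk* and *vri* had regions called by all 7 libraries. This does not check the labelled cell type, as no value of non-clock cells is set beside it. The study reports the *per* promoter as accessible in GFP-negative cells too. Of 14 neuropeptide genes of clock neurons, 11 had tested regions, among them *Dh31*, *CCHa1*, *sNPF*, *NPF* and *AstC*. *Pdf*, *ITP* and *CNMa* had no called region in these 7 libraries. The study reports *ITP* and *CNMa* as more accessible in clock neurons than in non-clock cells, by reads over the whole gene and its promoter, an unlike measure. Among 14 glial marker genes, *repo*, *moody*, *alrm*, *wrapper*, *Gat* and *zyd* had no region. Tested regions were found for 7, namely *Gs2*, *Eaat1*, *nrv2*, *Indy*, *gcm*, *Tret1-1* and *axo*. Summed over the whole glial list, the called tags of a library were 647 to 724 in per01 and 795 to 832 in the wild type, without overlap. In such sums a library without a call adds nothing, unlike the fill above. The part of missed calls and depth was not tested, and no sum over all regions is set beside it. The part of this difference in the results below was not tested either. The sums were also lower in per01 without overlap for clock neuron identity factors (8002 to 8264 in per01 and 9043 to 9148 in the wild type), activity-regulated genes (4248 to 4471 in per01 and 4576 to 4707 in the wild type) and *Sox* genes (1712 to 1891 in per01 and 1895 to 1962 in the wild type), so the glial list was not alone in this. Much of the sum of the identity list came from *bru3*, with 2982 to 3236 tags in per01 and 3477 to 3704 in the wild type.

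Sequences are given for 7 sites that the results turn on, centred on the canonical E-box CACGTG, in capitals, where it occurs near the summit, and otherwise on the summit. For *SNF4Agamma*, *vri* and *per* the summit lies outside the printed stretch. *Hk* and *G9a* stand for sites that were higher in per01, *Gyc89Da* and *SNF4Agamma* for sites that were lower, and *vri*, *tim* and *per* for the E-boxes of the clock loop itself. They are the plus strand of the dm6 genome, as given in the RefSeq release of that assembly, at chrX:10252847-10252966 for *Hk*, chrX:245932-246052 for *G9a*, chr3R:16472648-16472768 for *Gyc89Da*, chr3R:21152396-21152515 for *SNF4Agamma*, chr2L:5303295-5303414 for *vri*, chr2L:3507360-3507479 for *tim* and chrX:2687648-2687767 for *per*. The E-box reads the same on both strands. It was found in 6.42% of all tested regions, searched within 150 bp of the summit, so a match here is a description of the letters only.
Hk: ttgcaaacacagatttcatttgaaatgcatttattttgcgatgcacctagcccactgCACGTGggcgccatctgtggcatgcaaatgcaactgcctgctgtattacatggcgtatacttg
G9a: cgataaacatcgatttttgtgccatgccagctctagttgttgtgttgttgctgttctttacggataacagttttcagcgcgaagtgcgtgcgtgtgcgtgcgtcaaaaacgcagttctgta
Gyc89Da: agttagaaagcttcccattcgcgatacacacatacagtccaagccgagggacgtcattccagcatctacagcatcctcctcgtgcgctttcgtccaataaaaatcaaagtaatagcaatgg
SNF4Agamma: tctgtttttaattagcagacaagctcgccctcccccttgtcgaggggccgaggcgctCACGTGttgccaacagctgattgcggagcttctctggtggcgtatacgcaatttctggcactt
vri: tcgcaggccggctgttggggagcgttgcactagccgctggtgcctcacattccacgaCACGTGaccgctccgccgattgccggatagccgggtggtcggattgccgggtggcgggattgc
tim: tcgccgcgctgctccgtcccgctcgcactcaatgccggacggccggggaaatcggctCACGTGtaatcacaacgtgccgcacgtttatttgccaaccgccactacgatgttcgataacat
per: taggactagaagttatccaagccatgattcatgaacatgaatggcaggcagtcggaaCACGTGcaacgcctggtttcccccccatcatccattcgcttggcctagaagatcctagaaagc
The E-box of *Hk* lay 22 bp from the summit, that of *tim* 43 bp, that of *per* 79 bp, that of *SNF4Agamma* 97 bp and that of *vri* 140 bp. *G9a* and *Gyc89Da* held no canonical E-box in these windows.

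Of the 19964 regions, 301 passed an adjusted p of 0.1 in limma with Benjamini-Hochberg adjustment, or 1.51% of those tested. The 151 regions higher in per01 were 0.756% and the 150 lower ones 0.751%. With an unadjusted p below 0.05 there were 2596 regions, or 13%. In all 301 the 4 mutant and the 3 wild-type values did not overlap, which was also the case in 13.4% of all tested regions. The changes of the higher regions ran up to 3.18 on the log2 scale of tags + 1, with a median of 1.11, and those of the lower regions had a median size of 0.95, where 1 is a 2-fold difference. Over all tested regions the median was -0.01. When libraries were scaled by their total tags instead, every change moved up by 0.10 at the median and the split was 347 higher and 96 lower.

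Many of these differences were between a call and none. No wild-type library had a call in 66 of the 151 higher regions, and no per01 library had one in 55 of the 150 lower regions. The group without a call there holds set values with no measured spread, so the SE and adjusted p partly rest on the fill. Such regions also came to be tested only through the calls of the higher group. By contrast, 52 higher and 71 lower regions were called by all 7 libraries, with median sizes of 0.75 and 0.57. When missing calls were set to the limit of the local background, 233 of the 301 kept their call, 126 higher and 107 lower. The number of calls rests on the 3 wild-type libraries: without wild-type replicate 1, 2 or 3 it was 34, 66 or 46. Without per01 replicate 1, 2, 3 or 4 it was 404, 169, 190 or 397.

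**Figure D1:**
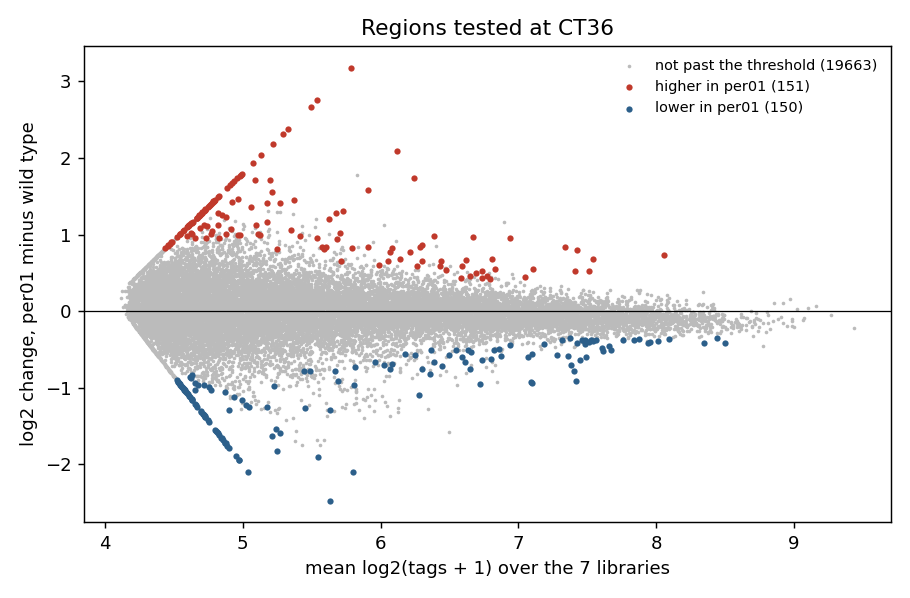
Each point is a tested region, with its mean log2(tags + 1) over the 7 libraries on the x axis and its log2 change, per01 minus wild type, on the y axis. The 151 higher regions (red) lie at 0.42 to 3.18 and the 150 lower regions (blue) at -2.47 to -0.35, among the regions that did not pass (grey).

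The clearest differences were those where all 7 libraries had a call, and the 10 with the largest change in each direction were chosen for this after their values were seen. The largest rise among them was at X:63310-63463, 59100 bp from the nearest gene, *lncRNA:CR40469*, with 118.4, 145.7, 116.9 and 123.6 tags in per01 and 39.7, 36.4 and 35.2 in the wild type (log2 change 1.74, SE 0.13, adjusted p 4.55e-05). All of its sequence (100% of its 31-mers) occurs elsewhere in the genome, so its reads cannot be placed with certainty. An exon of *CG13375* (X:286578-287049) had 110.9, 105.1, 85.2 and 83.0 tags in per01 and 39.7, 21.8 and 34.4 in the wild type (1.59, SE 0.21, adjusted p 0.00438). Both lie in the end of X that is described below. An intron of *Usp2*, a ubiquitin-specific protease (X:22461314-22461848), had 76.2, 72.1, 77.6 and 83.0 tags in per01 and 35.1, 30.6 and 26.7 in the wild type (1.3, SE 0.17, adjusted p 0.00386). The lowest per01 library stood at more than 2 times the highest wild-type library at each of these sites. The promoter of *pbl*, a gene of cytokinesis, rose by 1.06, that of *CG12024* by 0.98, that of *CG16721* by 0.99 and an intron of *EDTP*, a phosphoinositide phosphatase gene, by 0.98. At *EDTP* the per01 libraries had 112.8, 123.1, 98.3 and 110.7 tags, and the wild type had 79.5, 43.7 and 49.7.

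Among the sites lower in per01, the promoter of *Gyc89Da*, an atypical guanylyl cyclase (3R:16472460-16472831), had 25.2, 40.5, 36 and 31.4 tags in per01 and 90.5, 73.5 and 81.8 in the wild type (log2 change -1.29, SE 0.20, adjusted p 0.00973). Its sequence is given above. A region 385 bp from *tara*, a transcriptional coregulator known in flies for a role in sleep (3R:16260411-16260797), had 54.2, 46.5, 64.5 and 57.2 tags in per01 and 138.6, 107.7 and 113.1 in the wild type (-1.09, SE 0.15, adjusted p 0.00482). The promoter of *Tob*, of the BTG/TOB family of antiproliferative proteins (X:16091434-16091825), had 102.7, 108.1, 100.5 and 99.6 tags in per01 and 202.3, 179.8 and 213.2 in the wild type (-0.94, SE 0.10, adjusted p 0.000601). In all 3 the groups were far apart relative to the spread within each. The promoter of *SNF4Agamma*, the regulatory gamma subunit of AMPK (3R:21152281-21152788), with the E-box printed above, had 58.0, 63.1, 55.7 and 79.3 tags in per01 and 115.5, 104.1 and 117.7 in the wild type (-0.81, SE 0.14, adjusted p 0.0197). A region 4096 bp from *PGRP-LA*, of the peptidoglycan recognition proteins (3L:9330014-9330453), fell by 0.92, the promoter region of *tRNA:Val-CAC-1-1* by 0.96, that of *CG44774* by 0.92 and an intron of *CG42260* by 0.98. At *CG42260* the 4 per01 libraries were close together, at 26.2 to 27.7 tags, and the wild type had 52.7, 67.0 and 45.1.

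**Figure D2:**
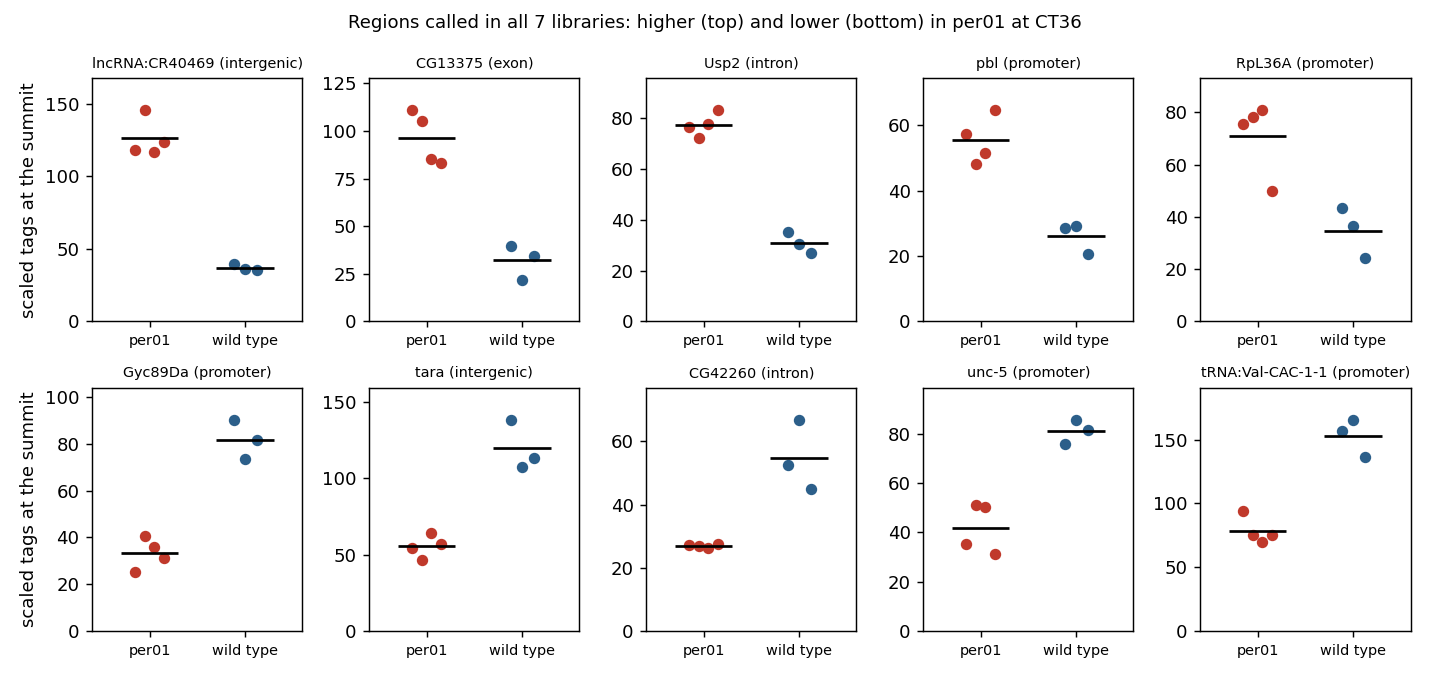
Each point is a library, with scaled tags at the summit on the y axis (linear, from 0) and per01 (red, 4 libraries) left of wild type (blue, 3 libraries); lines are means. In all 10 panels the groups are apart, with the widest relative gap at X:63310 (116.9 to 145.7 tags in per01 and 35.2 to 39.7 in the wild type), whose sequence is fully repeated elsewhere, and the narrowest at *RpL36A*, where the lowest per01 library had 49.8 tags and the highest wild-type library 43.4.

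Changes on a larger scale came from sites that every library of the higher group called and the other group mostly did not. The largest was at X:23430996-23431106, 107150 bp from *mir-10404-5*, with 96.4, 157.7, 124.5 and 208.5 tags in per01 and no call in the wild type (log2 change 3.18, SE 0.23, adjusted p 3.38e-05). Like X:63310, it is fully repeated elsewhere in the genome, and it was 1.24 with missing calls at the local limit. A region 13280 bp from *CG43149*, near the end of 3L (3L:40039-40830), had 105.8, 103.6, 98.3 and 86.7 tags in per01 and no call in the wild type (2.66, SE 0.18, adjusted p 2.49e-05), and its size stayed at 2.69 with missing calls at the local limit. The promoter of *Sse*, the separase of chromosome segregation, had 108.3, 105.1, 101.6 and 103.3 tags in per01 and no call in the wild type (2.75, SE 0.17, adjusted p 1.7e-05), and 0.95 at the local limit. The size of such a change thus depends on what a missing call is taken to mean. On the log2 scale it went from 2.75 to 0.95 at *Sse*, but only from 2.66 to 2.69 at *CG43149*. Of the remaining 6 of these 10 regions beside *Hk*, the promoters of *CG42810* (2.37), *Xrp1*, a transcription factor of the stress response (2.19), and *Mettl2* (1.73), exons of *lncRNA:CR45919* (2.09) and *TTLL6A*, of the tubulin tyrosine ligase-like family (1.77), and X:63310 (1.74) rose. With missing calls at the local limit the adjusted p of *Xrp1* was 0.109 and its size 0.52, and the sizes were 0.66 for *CG42810*, 0.56 for *lncRNA:CR45919*, 0.84 for *TTLL6A* and 0.96 for *Mettl2*. At *lncRNA:CR45919* the wild-type library with a call had 107.7 tags, against 109.6 to 153.1 in per01, so the 2.09 comes from the other two wild-type libraries without a call.

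In the opposite direction, a region 34725 bp from *Cadps* on chromosome 4 (4:1306096-1306795), which overlaps an annotated transposon, had 20.8, no call, 26.2 and 27.7 tags in the 4 per01 libraries and 147.8, 127.4 and 120.0 in the wild type (log2 change -2.47, SE 0.20, adjusted p 6.21e-05). 3 further regions in the same intergenic stretch passed, all over annotated transposons: 4:1278482-1279003 fell by 1.38, 4:1295137-1295278 rose by 1.22 and 4:1318410-1319344 rose by 0.73, with 332.6, 307.8, 421.7 and 273.0 tags in per01 and 206.0, 187.8 and 199.5 in the wild type. Neighbouring sites of this stretch thus moved in opposite directions. In these 3, but not in 4:1306096-1306795, more than 50% of the 31-mers occur elsewhere. The promoter of *GEFmeso*, a guanine nucleotide exchange factor (2R:18611655-18611943), had no call in per01 and 70.2, 62.6 and 68.0 tags in the wild type (-1.95, SE 0.23, adjusted p 0.00255), and -2.03 with missing calls at the local limit. An exon of *CG2865* (-1.89), introns of *CG46320* (-1.94), *atos* (-1.91), *Smox*, which transduces activin signals (-1.82), and *Corin* (-1.79), the promoter of *lncRNA:CR44914* (-2.10), a region 2546 bp from *Hacd1* (-2.10) and an intergenic region 3935 bp from *lncRNA:CR45246* (-1.75) also fell. Of these, *Smox*, *atos*, *CG46320* and *CG2865* kept an adjusted p below the threshold at the local limit, with changes of -1.14 for *Smox*, -0.57 for *atos*, -0.65 for *CG46320* and -0.71 for *CG2865*, and *lncRNA:CR44914* (0.423), *Hacd1* (0.191), *Corin* (0.487) and *lncRNA:CR45246* (0.112) did not.

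Counted by calls alone, 87 of the 27359 regions (0.318%) were called in every per01 and in no wild-type library, and 311 (1.14%) in every wild-type and in no per01 library. The per01 group has 4 libraries and 3 shallow ones, so the 2 counts are not on the same footing. When the 16504 strongest peaks were taken from every library, the counts were 115 and 177. The strongest 5 of the first kind were X:23430996 and the sites of *Sse*, *CG43149*, *CG42810* and *Hk*, and those of the second kind were the sites of *lncRNA:CR44914*, *GEFmeso*, *CG46320*, *CG2865* and *Corin*.

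The left end of the X chromosome held the largest number of changes in a stretch of 1 Mb. The first megabase of X had 15 regions past the threshold, all higher in per01, of 125 tested, or 12.0%, whereas the 137 stretches of 1 Mb with tested regions had a median of 2 such regions. By share, 3L from 25 to 26 Mb had 20% of 5 tested and chromosome 4 from 1 to 2 Mb had 10.5% of 38 tested (2 higher, 2 lower). All 15 on X lay in the first 350 kb, a boundary that was chosen after the values were seen. There, 15 of 23 tested regions rose, none fell, 20 were above 0, and the median change was 1.00. In the next stretch, to 1 Mb, none of 102 regions passed in limma, 9 had an unadjusted p below 0.05 and the median was -0.04.

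This stretch contains *G9a*, the histone H3 lysine 9 methyltransferase, *cin*, an enzyme of molybdenum cofactor synthesis, and *ewg*, a transcription factor of neurons and flight muscle. The *G9a* promoter printed above (X:245797-246104) had 154.3, 157.7, 116.9 and 116.2 tags in per01 and 66.5, 78.6 and 61.1 in the wild type (log2 change 0.97, SE 0.14, adjusted p 0.00786), and an exon region of *G9a* (X:247294-247648) had 30.2, 36, 37.1 and 40.6 tags in per01 and no call, 17.5 and no call in the wild type (1.13, SE 0.22, adjusted p 0.0346). At *cin* 2 promoter regions rose, by 1.41 and 1.11. At *ewg* an intron (0.80) and a promoter region (0.65) rose, while 3 further regions of the gene had changes of -0.27, -0.01 and -0.92 and did not pass. The stretch was therefore not uniformly higher. The median deviation of the 23 regions from their mean over the 7 libraries was 0.37 to 0.48 in the per01 libraries and -0.57 to -0.51 in the wild-type libraries.

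The same end of X was higher in per01 in libraries that had no part in the comparison at CT36. In the clock neurons of CT24, 18 of 23 regions rose (3.12% of all regions did there) with a median of 1.01, and in the non-clock cells 15 of 22 rose (1.84% of all) with a median of 0.83. The difference was thus not limited to clock neurons or to subjective dusk. In 5 of the 23 regions more than 50% of the 31-mers occur elsewhere in the genome, and 3 of these and 12 of the 18 others rose, and the median change of those 18 was 0.99. The count of 15 was 7, 8 or 8 without wild-type replicate 1, 2 or 3.

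**Figure D3:**
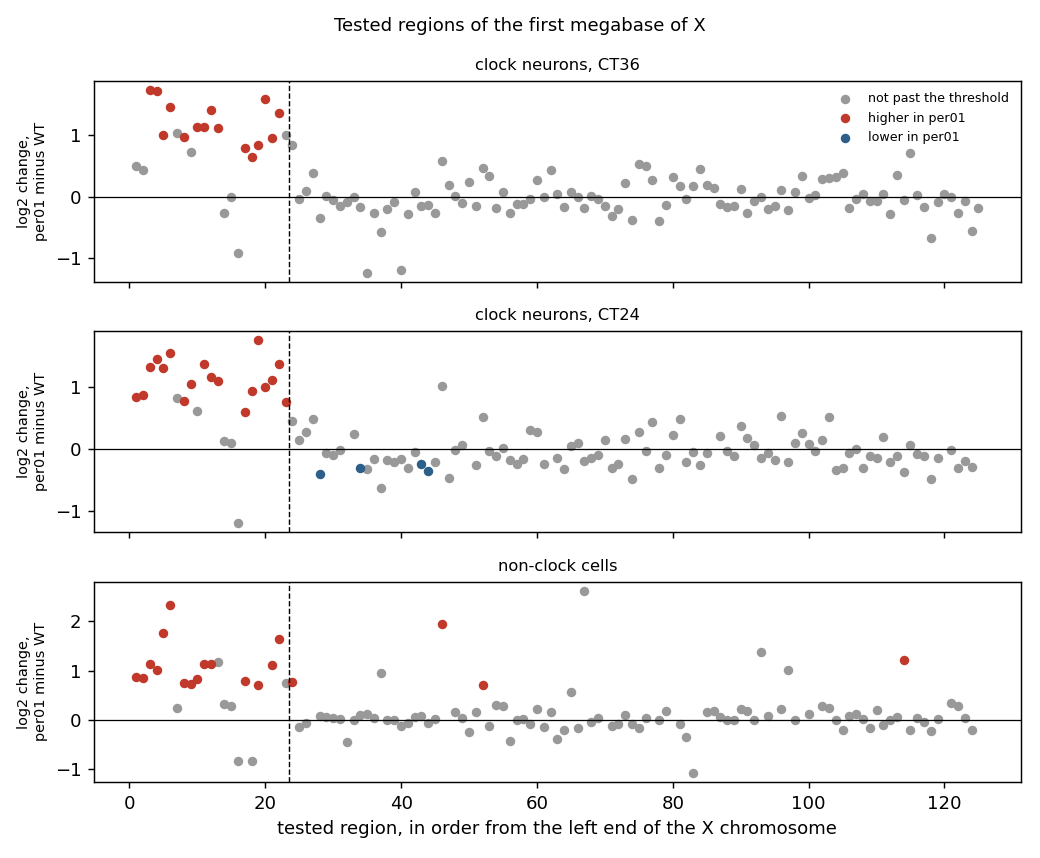
Each point is a tested region of the first megabase of X in chromosome order, with its log2 change, per01 minus wild type, on the y axis, for clock neurons at CT36 (top), clock neurons at CT24 (middle) and non-clock cells (bottom). Left of the dashed line (350 kb), 15 of 23, 18 of 23 and 15 of 22 regions were higher in per01, and right of it the medians are -0.04, -0.10 and 0.03.

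The X chromosome as a whole gave 51 higher regions (1.56%) and 31 lower ones (0.95%) of 3276 tested, and the autosomes 100 (0.60%) and 119 (0.71%) of 16685. Outside the first megabase, X had 36 higher and 31 lower regions of 3151. The X-linked share of the tags in tested regions was 14.9%, 14.5%, 14.7% and 14.8% in per01 and 14.7%, 14.7% and 15.1% in the wild type. The groups overlapped, and the difference of -0.072 percentage points had p = 0.686 in an exact permutation test over 35 splits (two-sided). Of the regions of 18 genes of sex determination and dosage compensation, 0 of 50 passed in limma, and 4 had an unadjusted p below 0.05. Over all tested regions, 1.51% passed and 13% had such a p. The dosage compensation RNAs *roX1* and *roX2*, which are made in males, were open in both genotypes: the strongest *roX1* region had 211.0, 162.2, 177.0 and 149.4 tags in per01 and 204.2, 178.3 and 230.8 in the wild type. On the Y chromosome, the per01 libraries held 1, 1, 2 and 1 peaks and the wild-type libraries 2, 6 and 9. Of 3 tested Y regions none passed in limma, 2 had an unadjusted p below 0.05, both lower in per01, and the median change was -0.57.

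Repeated sequence was more common among the higher regions than among all. Of the 151 higher regions, 10 (6.62%) lay in sequence of which more than 50% occurs elsewhere, of the 150 lower regions 2 (1.33%), and of all tested regions 80 (0.401%). An annotated transposon overlapped 6 higher (3.97%), 3 lower (2.0%) and 139 tested regions (0.696%). Promoters, taken as 1000 bp before to 100 bp after a start, made up 36.4% of the higher, 46.0% of the lower and 41.8% of all tested regions, and introns 35.8%, 32.7% and 34.8%. The canonical E-box was in 9.27%, 4.67% and 6.42%, and the VP-box in 1.32%, 1.33% and 2.59%. The GC content of 301 bp at the summit had medians of 46.5%, 47.5% and 46.8%. No test was made of these shares.

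Most of the 301 regions that could be tested lay in the same direction in libraries of another time and of other cells of the same genotypes. A region was tested there when 3 or more of those libraries called it, with missing calls filled as above. Where a genotype again had no call, the calls of the other genotype alone brought the region in. Its direction was then set by the fill, so the counts below are not free of this selection. Of the higher regions, 144 could be tested at CT24, where 135 were above 0 and 96 passed as higher, against 3.12% of all regions there, and none passed as lower (3.68% of all). In non-clock cells, whose labels give no time, 114 could be tested, 106 were above 0, 65 passed as higher, against 1.84% of all, and none as lower (1.65% of all). Of the lower regions, 125 of 135 were below 0 at CT24 and 75 passed as lower, and 113 of 128 were below 0 in non-clock cells, where 59 passed as lower and 1 as higher. Both other sets repeated the call for 58 higher and 50 lower regions. Neither did for 48 higher and 66 lower regions, some of which could not be tested there.

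*Usp2*, *pbl*, *Gyc89Da*, *unc-5*, *Tob* and *CG43149* were among those that passed in all 3 comparisons. At *Gyc89Da* the log2 change was -1.29 at CT36, -1.21 at CT24 and -1.55 in non-clock cells, and at *Usp2* it was 1.3, 1.62 and 1.7. *tara* differed at CT24 (-1.07) and had 0.34 in non-clock cells, with an adjusted p of 0.86. *Dyrk2*, a kinase of the DYRK family, rose at CT36 by 1.00, with 42.8, 55.6, 36 and 33.2 tags in per01 and 19.4, 21.1 and 19.9 in the wild type, and had -0.14 at CT24 with an adjusted p of 0.75. Whether the genotype effect differed between CT36 and CT24 was tested as an interaction over the 14 clock neuron libraries of constant darkness, and 12 of 22986 regions passed (0.0522%), 11 of them with the higher effect at CT36. Some of the 12 had no call at CT36, so their change there was set by the fill. With missing calls at the local limit none passed, while 1333 had an unadjusted p below 0.05. *Dyrk2* was not among the 12.

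Of 226 genes with a changed region in them or in their promoter, 25 had more than 1. Regions between genes, such as those nearest to *Cadps*, were not counted here. *unc-5*, a netrin receptor that guides axons, had 4 lower regions. Its upstream promoter region (2R:15339550-15339916) had 35.3, 51.1, 50.3 and 31.4 tags in per01 and 75.8, 85.9 and 81.8 in the wild type (log2 change -0.96, SE 0.20, adjusted p 0.0482), and the others fell by 0.51, 0.43 and 0.99. *Tlk*, the Tousled-like kinase of chromatin assembly, had 2 lower intron regions and a higher promoter region. Its intron region X:3743796-3744146 had 149.3, 127.6, 128.9 and 114.4 tags in per01 and 240.2, 216.1 and 282.0 in the wild type (-0.91, SE 0.11, adjusted p 0.00338), and its promoter changed by 0.45. *EDTP*, *aPKC*, *dpr8*, *out*, *Tmtc2* and *Hk* had 2 higher regions each, and *SNF4Agamma*, *Rab26* and *mub* had 2 lower ones each. In 7 of the 25 genes the regions moved in both directions, among them *Sh* and *DIP-gamma*, so a gene's regions need not share a direction.

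Ion channels and regulators of excitability shape the firing of clock neurons. Of 174 tested regions in a list of 21 such genes, 3 were higher and 1 was lower, beside 0.756% and 0.751% of all tested regions, and nothing is read from so few about the list. The 3 were in *Hk*, the Hyperkinetic beta subunit of the Shaker potassium channel, known in flies for a role in sleep, and in *Sh*, the channel itself. The E-box intron region of *Hk* printed above (X:10252879-10253074) had 78.1, 75.1, 84.1 and 71.9 tags in per01 and no call in the wild type (log2 change 2.32, SE 0.20, adjusted p 8.44e-05). It was 1.14 at the local limit, 2.33 at CT24 and 3.02 in non-clock cells, where it passed as well. An exon region of *Hk* (X:10243660-10243838) had 36.5, 40.5, 36 and 40.6 tags in per01 and no call in the wild type (1.33, SE 0.21, adjusted p 0.0112) and did not pass at CT24 (0.46). Of 16 tested regions of *Hk*, these 2 passed. In *Sh*, an intron region (X:17960890-17961058) rose by 1.41 and another (X:17956248-17956396) fell by 1.02, with 2 of 33 regions of the gene thus past the threshold in opposite directions. The second *Sh* region had a change of 0.40 in the fit over 14 libraries, the opposite sign. The list's median was -0.00, with -0.01 over all regions.

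Genes of neuronal signalling appeared among the single changes, and those named here were picked after their values were seen. Per01 had higher tags in introns of *dnc*, the cAMP phosphodiesterase of learning mutants (78.7, 81.1, 87.4 and 71.9 tags in per01 and 49.9, 52.4 and 48.1 in the wild type, log2 change 0.66), and of *Nrx-1*, the presynaptic neurexin (93.2, 84.1, 103.8 and 118.1 tags in per01 and 52.7, 64.8 and 48.9 in the wild type, 0.84). The promoter of *nAChRalpha2*, a nicotinic receptor subunit, rose by 0.56. Lower in per01 were the promoters of *CASK*, a scaffold protein that binds neurexin (145.5, 118.6, 145.3 and 131.0 tags in per01 and 212.5, 206.7 and 239.2 in the wild type, -0.70), of *Galphaq*, a G protein subunit (-0.71), of *Pka-R1*, a regulatory subunit of protein kinase A (-0.56), and of *Sema1a*, an axon guidance ligand (-0.60). All 7 were called in all 7 libraries. All but that of *Pka-R1* (-0.17 at CT24) also passed at CT24.

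No region of the core clock genes passed the test at CT36, where 1.51% of all tested regions did. With 36 regions, the lack of a call is therefore not read as particular to these genes. The 8 genes *per*, *tim*, *Clk*, *cyc*, *vri*, *Pdp1*, *cwo* and *cry* held 36 tested regions, of which 19 were above 0, and their median change was 0.04. Only 2 had an unadjusted p below 0.05 in limma (5.56%, beside 13% of all regions), both in *vri*, and the smallest adjusted p was 0.174. At CT24, in other libraries, 12 of the 36 regions were higher and 3 lower, beside 3.12% and 3.68% of all regions there, with a median of 0.16. The 8 regions with a canonical E-box had a median of 0.06 at CT36 and of 0.57 at CT24. The interaction passed for none of these regions.

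At *tim*, the partner of PER, the promoter region with the E-box printed above (2L:3507162-3507577) had 137.3, 166.7, 154.0 and 202.9 tags in per01 and 156.1, 174.7 and 136.8 in the wild type (log2 change 0.08, SE 0.13, adjusted p 0.848). The groups overlapped, and at CT24 the same region had 0.66 with an adjusted p of 0.077. The other 3 regions of *tim* had changes of 0.23, 0.30 and 0.99 at CT36, the last with calls in 3 of 4 per01 libraries and 1 of 3 wild-type libraries (SE 0.48, adjusted p 0.411). At *per*, the strongest region, in the promoter (X:2684591-2685283), had 211.0, 214.7, 208.6 and 199.2 tags in per01 and 190.3, 155.7 and 214.7 in the wild type (0.17, SE 0.10, adjusted p 0.542). The E-box intron region of *per* (X:2687393-2687992) had 64.3, 73.6, 74.3 and 103.3 tags in per01 and 71.1, 56.0 and 58.8 in the wild type (0.33, SE 0.17, adjusted p 0.452).

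*vri*, the repressor of the second loop, came nearest to the threshold. Its intron region with the printed E-box (2L:5303195-5303724) had 134.8, 157.7, 121.3 and 166.0 tags in per01 and 110.9, 113.5 and 106.2 in the wild type (log2 change 0.38, SE 0.12, adjusted p 0.174), without overlap. It had 1.00 at CT24, where it passed (adjusted p 0.002). The strongest *vri* region (2L:5301056-5301907) had 159.4, 168.2, 146.4 and 221.4 tags in per01 and 216.2, 168.8 and 169.7 in the wild type (-0.10, adjusted p 0.811). *Clk*, the activator, had 160.6, 211.7, 199.9 and 188.2 tags in per01 at its strongest region (3L:7770407-7771016) and 172.8, 181.9 and 161.2 in the wild type (0.14, adjusted p 0.614). A second *Clk* region (3L:7772279-7772456) had a call in 1 of 4 per01 and 2 of 3 wild-type libraries, with a change of -0.05, and -1.34 at CT24, where it passed.

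*Pdp1*, the activator of the second loop, had 13 tested regions between -0.69 and 0.37. Its strongest (3L:7854708-7855747) had 297.3, 250.8, 276.4 and 236.1 tags in per01 and 304.0, 276.5 and 299.6 in the wild type (-0.15, adjusted p 0.531). *cyc*, the partner of CLK, had 2 regions at -0.10 and 0.04. *cwo*, a repressor that binds E-boxes, had 3 between -0.22 and 0.23, and *cry*, the blue light photoreceptor, had 2 at -0.06 and 0.04. The promoter of *cry* (3R:19211399-19211926) had 209.8, 216.2, 227.2 and 297.0 tags in per01 and 256.8, 242.3 and 234.6 in the wild type. A p that misses the threshold does not show equal levels: the standard errors of the regions called by all 7 libraries were 0.085 to 0.25 on the log2 scale.

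**Figure D4:**
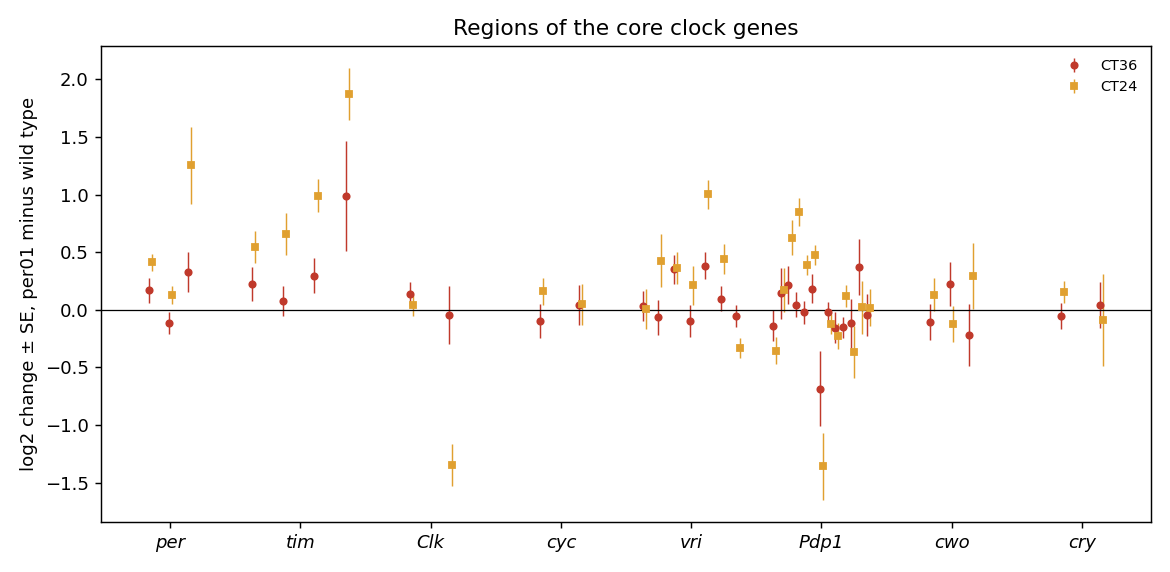
Each point is a tested region of a core clock gene, in chromosome order within the gene, with its log2 change ± SE, per01 minus wild type, at CT36 (red circles, 4 and 3 libraries) and at CT24 (yellow squares, 4 and 3 other libraries). The CT36 points have a median of 0.04 with none past the threshold, and the CT24 points have a median of 0.16 with 12 higher and 3 lower.

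Around the core loop, few regions of the listed genes passed, beside 1.51% of all tested regions. With lists of this size nothing is read from such counts about a group of genes. Kinases, phosphatases and ubiquitin ligases set the pace of PER and TIM decay, and of 80 regions in 14 of these genes only the promoter of *sgg*, the GSK3 kinase of the clock, passed: it had 126.6, 123.1, 120.2 and 107.0 tags in per01 and 74.8, 85.9 and 91.7 in the wild type (log2 change 0.50, SE 0.11, adjusted p 0.079). This region also passed at CT24 (0.47) and in non-clock cells (0.42). In limma, 0 of 23 regions of neuropeptide genes passed (2 with an unadjusted p below 0.05), 0 of 49 of neuropeptide receptor genes (3), 0 of 35 of activity-regulated genes (4) and 0 of 18 of *Sox* genes (0). Of 135 regions of nuclear receptor and ecdysone response genes, an intron of *Eip75B*, the E75 nuclear receptor, rose by 1.00 with 40.3, 36, 41.5 and 36.9 tags in per01 and no call, 18.9 and 22.2 in the wild type. The list of clock neuron identity factors had 133 regions, 70 of them in the single gene *bru3*. In this list an intron of *pdm3*, a POU domain factor, fell by 0.94, with no call in per01 and 29.6, 40.0 and 29.8 tags in the wild type, and -0.55 at the local limit with an adjusted p of 0.28.

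Chromatin repressors and remodelers had 84 tested regions, with the 2 of *G9a* higher and 1 lower in *osa*, a subunit of the Brahma remodeling complex (3R:17703658-17704360), where *lncRNA:CR46035* overlaps. That region had 166.9, 153.2, 157.3 and 125.4 tags in per01 and 237.4, 195.8 and 251.4 in the wild type (log2 change -0.60, SE 0.12, adjusted p 0.0383). Both *G9a* sites are among the 15 at the end of X. Among 18 regions of glial markers, 2 fell: an intron of *nrv2*, a sodium pump beta subunit (by 0.38), with 169.5, 163.7, 183.5 and 155.0 tags in per01 and 199.6, 229.2 and 227.7 in the wild type, and an exon of *axo* (by 1.22, no call in per01). The list's median was -0.07, and 7 of the 18 had an unadjusted p below 0.05, 3 above 0 and 4 below. The summed tags of *Eaat1*, *Indy* and *Tret1-1*, transporter genes of the same list, were higher in each per01 library than in each wild-type library. Of neuron markers 0 of 81 regions passed in limma (14 with an unadjusted p below 0.05), of photoreceptor and fat body markers 0 of 7 (0), of markers of other neurons 0 of 29 (5) and of housekeeping genes 0 of 31 (6). The share over all tested regions was 1.51%, and nothing is read from so few about these lists.

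Regions that the study listed as open at dawn or dusk in the light and dark libraries of the wild type give a view that these 7 libraries had no part in choosing. Only the positions and directions of these lists were used. Of the LD dawn regions, 228 were tested at CT36, 10 were higher in per01 (0.756% of all regions were), none was lower, 87.7% were above 0 (48.7% of all), and the median change was 0.38, beside -0.01 over all tested regions. An unadjusted p below 0.05 was found for 81 of them (35.5%, beside 13% of all), all above 0. Of the LD dusk regions, 96 were tested, 1 was higher and 3 were lower, 42.7% were above 0, and the median was -0.07. At CT24 the medians were 0.14 for dawn and 0.36 for dusk regions, with 11 higher and 9 lower dawn regions and 29 higher and no lower dusk regions. In non-clock cells the medians were 0.07 and 0.06.

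The LD dawn regions were higher in each per01 library than in each wild-type library. Their median deviation was -0.02, 0.32, 0.10 and 0.32 in per01 and -0.16, -0.24 and -0.24 in the wild type. Within per01 the deepest library had the lowest deviation and the 2 shallowest had the highest, and the part of depth was not tested. The dawn regions were also called more often, 71.3% to 85.8% of 275 in the per01 libraries and 63.6% to 68.7% in the wild-type libraries. No call rate over all regions is set beside these or the dusk rates below. The per01 libraries held 22525, 18166, 19575 and 16504 peaks, and the wild-type libraries 19850, 22180 and 20402. In the 120 dawn regions called by all 7 libraries the median change was 0.28. For the dusk regions the deviations overlapped, at -0.20, 0.03, -0.07 and 0.10 in per01 and 0.10, 0.08 and 0.05 in the wild type, and 58.3% to 76.7% of 120 were called in per01 and 77.5% to 89.2% in the wild type.

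The 10 dawn regions that rose included introns of *Dyrk2*, given above, of *fipi*, an immunoglobulin domain gene known for a part in fly courtship song, and of *tei*. At *fipi* (2L:4749100-4749757) the per01 libraries had 61.7, 66.1, 59.0 and 64.6 tags and the wild type had 39.7, 39.3 and 39.7 (log2 change 0.65, SE 0.16, adjusted p 0.092), and the change at CT24 was -0.06. At *tei* (2R:13660684-13661431) per01 had 104.6, 111.1, 102.7 and 114.4 tags and the wild type had 80.4, 76.4 and 81.8 (0.44, SE 0.11, adjusted p 0.095). The others lay in or near *CG46244*, *Prosap*, *Achl*, *asRNA:CR46471*, *SCaMC*, *CG34251* and *CG3330*, with changes of 0.81 to 1.25. The dusk regions that fell were in exons of *CG32264* and *CG9705* and at *tRNA:Glu-CTC-2-3*, each without a call in per01, and an intron of *CG45002* rose by 1.28. Without per01 replicate 2, or without wild-type replicate 1 or 2, no dawn region passed in limma (55, 66 and 59 with an unadjusted p below 0.05), and without wild-type replicate 3 only 1 did, while their median stayed between 0.31 and 0.44 over all 7 omissions. With the replicate block and with summits matched within 150 bp no dawn region passed either (65 and 71 with an unadjusted p below 0.05), with medians of 0.33 and 0.38. Lists of regions that differed between dawn and dusk in constant darkness were chosen with the same wild-type libraries and are not described as a result.

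**Figure D5:**
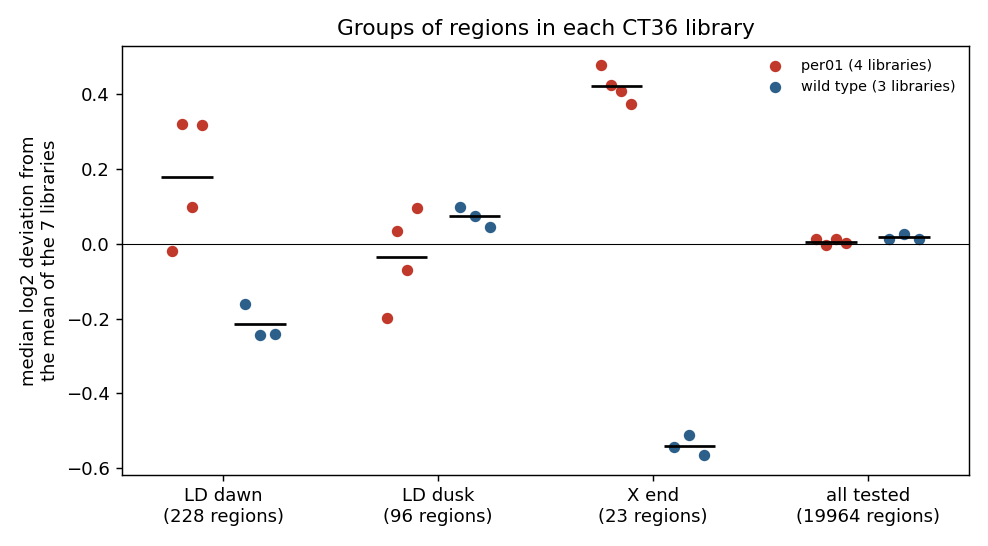
Each point is a library (4 of per01 in red, 3 of wild type in blue), placed at the median log2 deviation of a group of regions from the regions' own mean over the 7 libraries; lines are means. Per01 stands above wild type without overlap for the LD dawn regions (-0.02 to 0.32 and -0.24 to -0.16) and the end of X (0.37 to 0.48 and -0.57 to -0.51), and the groups overlap for the LD dusk regions.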

How the data were processed

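ATAC-seq peak lists of the 7 clock neuron libraries labelled CT36 were compared, and the lists of CT24 and non-clock libraries served for the other comparisons. Per the submitters' processing notes and the study's methods, reads were trimmed with cutadapt 4.1, aligned to dm6 with Bowtie2 2.4.5, filtered with SAMtools 1.15.1 and Picard 2.27.4, and peaks were called for each library with MACS2 2.2.7.1. The authors deposited for each peak its fold enrichment at the summit, a ratio over the local background, and a −log10 p and −log10 q. The deposited peak lists are 1 for each library. The authors tested read counts with DESeq2, and reads were not analysed here. For per01 against wild type at CT36 the study reports no significant differences, in its passage on peaks more open at subjective dusk. That result and the counts given here rest on unlike measures and tests. All columns were assigned to a library (0 left over).

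Tags at each summit were solved from the fold and the −log10 p, with an extension of 74 bp, and were whole within 0.02 for 100% of the peaks, as for 100% of 5000 peaks of simulated data. Library totals came from the background over 1.2e+08 bp. Peaks sharing 1 bp were merged, the highest summit was kept, missing calls were set to the library's lowest called tags, and a median-of-ratios factor was applied to each library. Regions called in 3 or more libraries were compared as log2(tags + 1) with limma 3.58.1 (trended variance) in R 4.3.3, with Benjamini-Hochberg adjustment and a threshold of 0.1, after a test on simulated data. Single shares were compared with an exact permutation test. Replicate numbers did not pair the samples. Merging, permutation tests and plots used matplotlib 3.10.9, scipy 1.17.1, pandas 2.3.3 and numpy 2.4.6 under Python 3.11.15. Genes came from the Ensembl annotation of dm6 and sequences from the RefSeq copy of that genome, all list genes were matched, and coordinates are 1-based.

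Named were the 10 regions with the largest change in each direction that every library of the higher group called, all regions of 8 core clock genes, roX1, roX2 and listed genes with a changed region, and the 5 strongest regions called in 1 genotype only. A few results are not reported here. Regions said to be chosen after their values were seen were added. The members and lists were chosen with earlier results of these data known. The lists of LD dawn and dusk regions are those of the study, taken from its supplement by position and direction. Alternatives were other fills, scalings, pseudocounts, filters, matching of summits, a replicate block, a joint fit, and leaving out each library. Standard errors come from the spread between libraries, and relative counting error is larger at low tags. A group without a call holds only set values, so it adds no measured spread.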

Additional observations from a re-analysis of the deposited data

Results flagged for a closer look

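Of 74 groups of 4 per01 values (tags at named regions, library depth and X-linked share), 1 held a library far from the others. At the *RpL36A* promoter the per01 libraries had 75.6, 78.1, 80.8 and 49.8 tags, and the gap of the lowest library took 0.831 of the range, above Dixon's 95% critical value for 4 samples. Chance gives such a gap in about 1 of 20 groups. The low library is replicate 4, the shallowest, and the part of its depth was not tested.

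The genotype effect differed between CT36 and CT24 in 12 of 22986 regions, as tested by the interaction in limma. The effect at CT36 was higher in 11 and lower in 1, an intron of *CycY*. All 12 had differed at CT24, with changes of -2.25 to 1.73 there, and none had an adjusted p below 0.1 at CT36 in the same fit. The region with most calls at CT36 lay in *lncRNA:CR34044*, where the change was 0.12 at CT36 and -0.65 at CT24. Most of the others had few calls or none at CT36, and the count was 0, with 1333 unadjusted p below 0.05, once missing calls took the local limit. Regions without a call at CT36 share a change of 0.17 there, which is the gap between the fills of the groups and no measured effect.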

How the results depend on the processing

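The count of 301 changed regions was 504 (264 higher, 240 lower) once missing calls took the value of the local limit, 170 over regions called by any library, 186 with summits matched within 150 bp and 543 in the joint fit of 14 libraries. Leaving out each library gave 34 to 404, lowest without wild-type replicates 1 (34), 3 (46) and 2 (66). The count of regions called in every library of 1 genotype and none of the other, 398 in all, was 533 to 793 without each library, highest without per01 replicate 1. The X-linked difference of -0.072 points ranged from -0.135 to 0.053, the last without wild-type replicate 3 (exact permutation p = 0.6). The interaction count of 12 was 0 with missing calls at the local limit. The *Sh* region at X:17956248 turned to 0.40 in the joint fit. Samples with the same replicate number had correlated deviations of -0.22, -0.10 and 0.087, and with the replicate block 217 regions passed (104 higher, 113 lower). Of 1603 values of 93 named regions under the alternatives, 1445 kept their side of the threshold and direction, 156 lost the call, 1 gained it and 1 changed sign. Of the 49 named regions past the threshold, 41 kept the call at the local limit and 20 to 23 of 40 without a wild-type library. The counts for the end of X and the medians of the LD lists were run under the same settings, an addition made after seeing the data, and gave 7 to 18 higher regions, dawn medians of 0.28 to 0.47 and dusk medians of -0.12 to 0.02. Depth limits the mutant side, where 3 libraries had fewer tags than any of the wild type and a missing call gives no measured level.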
